A study of Mus musculus with 2 samples.

Results

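The genes *Col10a1* and *Mmp13* mark chondrocyte hypertrophy in a fracture callus, and their spatial expression was compared in the calluses of a control and an Nf1Postn mouse. They were taken by their symbols from the count tables, as 2 of 19430 named genes. *Col10a1* (ENSMUSG00000039462) lies on chromosome 10 from 34265977 to 34273082 and *Mmp13* (ENSMUSG00000050578) on chromosome 9 from 7272514 to 7283332 of mm39. The data were 2 sections cut from 1 paraffin block that held both calluses, and expression was measured with the 10X Genomics Visium assay for fixed tissue, in which gene-specific probe pairs are captured by barcoded spots whose centers lie 100 μm from each other. Each count is a unique molecular identifier (UMI), and levels are given as CPM, the UMIs of a gene scaled by all UMIs of the same spots to 1000000.

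Both mice were female littermates of 8 weeks with a pinned fracture of the distal tibia, and both calluses were collected 10 days after surgery and decalcified in 14% EDTA. The control was Nf1[+/flox] without Cre, so it carried 1 wild-type *Nf1* allele. The Nf1Postn mouse was Postn-cre;Nf1[flox/-], in which the periostin promoter drives Cre recombinase and deletes the floxed allele mainly in periosteal cells, while the null allele is present in every cell. The labels number the sections as biological replicates, but they come from 1 block with 1 mouse per genotype, so no test between genotypes was possible. Values are given for each section with exact Poisson or binomial 95% intervals, which cover counting error only and neither the differences between animals nor those between planes of the tissue.

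Endochondral bone repair begins with a cartilage template whose chondrocytes enlarge, or become hypertrophic, before the template is replaced by bone. *Col10a1* encodes the chain of type X collagen, a short network-forming collagen that hypertrophic chondrocytes deposit. *Mmp13* encodes collagenase 3, which cleaves the type II collagen of the cartilage matrix and is made by late hypertrophic chondrocytes and by osteoblasts. The transcription factors RUNX2 and MEF2C are known to act on both programs, and AP-1 factors are known to act on *Mmp13*.

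The sequences before the start of each gene are shown because these factors are thought to act there. They are the 250 bases before the RefSeq start in GRCm38.p6, both on the plus strand, at chr10:34389731-34389980 for *Col10a1* and chr9:7272264-7272513 for *Mmp13*. Capitals mark matches to the RUNX core ACCACA, which was sought on both strands. They also mark the AP-1 motif TGANTCA, likewise sought on both strands. The TATA box motif TATAAA was sought on the strand of the gene.
Col10a1: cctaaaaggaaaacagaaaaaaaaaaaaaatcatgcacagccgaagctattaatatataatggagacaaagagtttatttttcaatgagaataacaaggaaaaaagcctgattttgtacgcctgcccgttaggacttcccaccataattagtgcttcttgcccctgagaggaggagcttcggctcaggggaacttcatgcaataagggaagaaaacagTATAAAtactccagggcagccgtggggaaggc
Mmp13: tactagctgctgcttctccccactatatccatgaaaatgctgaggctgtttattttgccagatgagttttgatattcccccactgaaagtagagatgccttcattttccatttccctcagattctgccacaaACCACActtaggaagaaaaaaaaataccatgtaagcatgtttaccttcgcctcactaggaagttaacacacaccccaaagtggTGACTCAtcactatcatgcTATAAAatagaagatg
The *Col10a1* window held TATAAA, with its first base 32 bases before the start. The *Mmp13* window held ACCACA at 118, TGACTCA at 35 and TATAAA at 16 bases before the start. ACCACA was found in 14.05%, TGANTCA in 6.749% and TATAAA in 7.592% of the windows of the same length before 32851 RefSeq starts. A match is a run of letters and not a measured site.

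The control callus held 1700 spots in section 1 and 1778 in section 2, with medians of 7053 and 5717.5 UMIs per spot. The Nf1Postn callus held 1341 and 1556 spots with medians of 2030 and 3239.5 UMIs, so rare transcripts were less easily seen there. *Nf1* itself was at 87.8 and 79.0 CPM in the control and at 65.6 and 49.6 CPM in the Nf1Postn callus. Cells outside the *Postn* lineage keep the floxed allele there, and whether the probes lie in the deleted part is not given in the sources used here. The sections shared 2711 barcodes because slides carry the same grid. The 5 spots without a genotype held 1 *Mmp13* and 0 *Col10a1* UMIs and were left out.

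*Col10a1* was counted in fewer spots of the control callus than *Mmp13*, and more of its UMIs lay in its richest spots. *Col10a1* was at 344 CPM (334–354) in section 1 from 4666 UMIs and at 144 CPM (138–151) in section 2 from 1748 UMIs. *Mmp13* was at 505.5 CPM (494–518) in section 1 and 405 CPM (393–416) in section 2. The control sections thus differed more in *Col10a1* than in *Mmp13*. The probes of the genes differ, so the level of one was not ranked against that of the other.

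A spot was counted as positive for a gene from 3 UMIs. *Col10a1* was positive in 497 of 1700 control spots (29.2%) in section 1 and 183 of 1778 (10.3%) in section 2, and its richest spot held 64 UMIs. *Mmp13* was positive in 795 (46.8%) and 586 (33.0%) spots, with at most 44 UMIs. The 10% of control spots richest in each gene held 61.8% of all *Col10a1* UMIs and 45.3% of all *Mmp13* UMIs. This share and the number of positive spots depend on how many UMIs a gene has. At similar totals the shares were closer, 54.0% for *Col10a1* in section 1 (4666 UMIs) and 47.7% for *Mmp13* in section 2 (4904 UMIs).

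**Figure D1:**
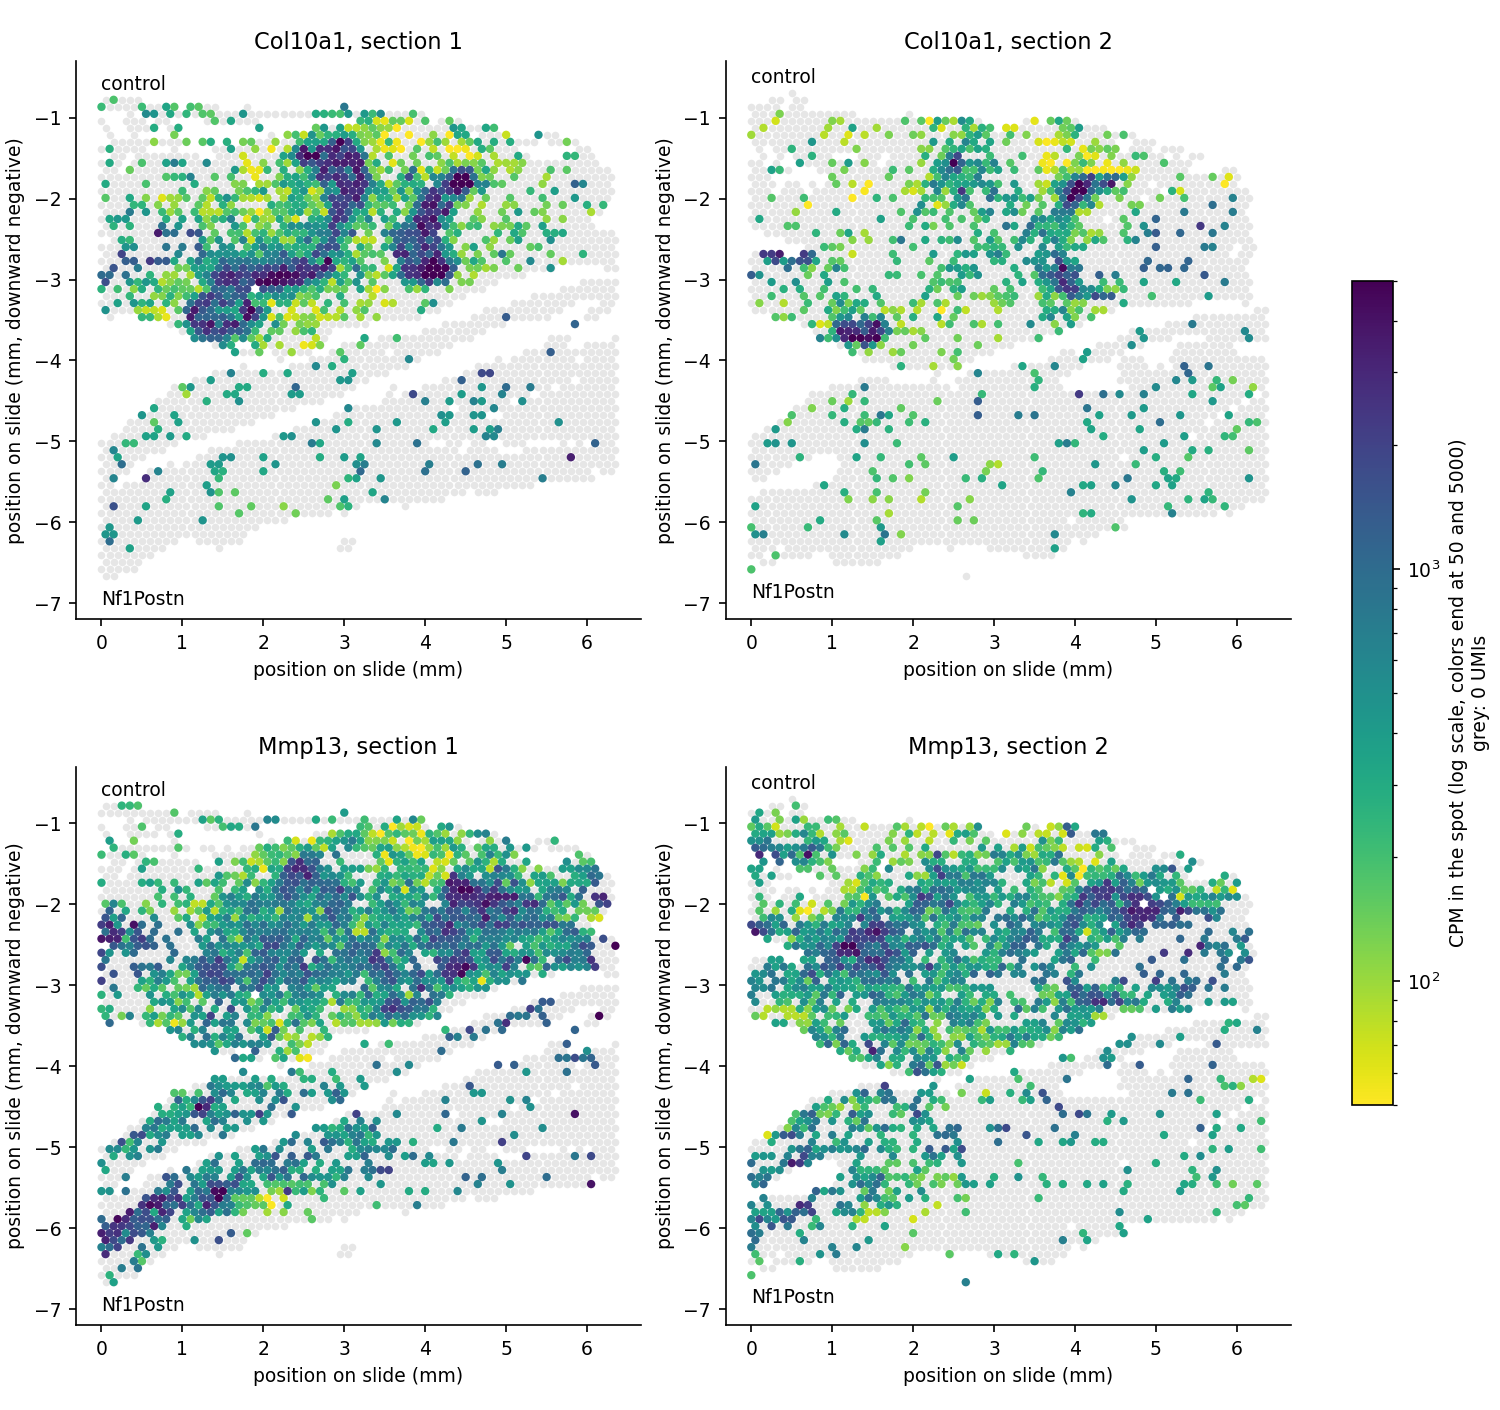
Level of *Col10a1* and *Mmp13* in every spot of both sections, by position on the slide in mm, with the control callus above and the Nf1Postn callus below. *Col10a1* formed bands in the control callus, while *Mmp13* also filled areas outside these bands and reached at most 44 UMIs in a spot of either callus.

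Along the length of the control callus, *Mmp13* was highest beyond the peak bin of *Col2a1* (type II collagen), on the side away from the left edge of the slide. Its highest bin still lay in the right *Col10a1* band in section 1 and beyond that band in section 2. On this side *Mmp13* was still high between 4.8 and 5.1 mm in both sections, where *Col10a1* had fallen. Near the left edge the bins differed. Between 0 and 0.3 mm *Col10a1* was at 82.7 and 50.4 CPM in sections 1 and 2, and *Mmp13* at 482 and 391 CPM. Between 0.3 and 0.6 mm *Col10a1* was at 108 and 69.9 CPM, and *Mmp13* at only 166 and 210 CPM. Control spots were grouped in bins of 0.3 mm, a width chosen after the maps were seen. In section 1, *Col2a1* peaked at 138353 CPM between 3.9 and 4.2 mm. *Col10a1* was at 627 CPM in the same bin and 597 CPM in the next, and fell to 71.2 CPM between 4.8 and 5.1 mm. *Mmp13* was at 351 CPM in the *Col2a1* peak and rose to 890 CPM (825–960) between 4.2 and 4.5 mm, and it was still at 884 CPM between 4.8 and 5.1 mm.

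In section 1 *Col10a1* on this side thus shared the bin of *Col2a1*, whereas in section 2 it was 1 bin further. In section 2 *Col2a1* peaked at 148367 CPM between 3.6 and 3.9 mm, *Col10a1* at 412 CPM (370–458) between 3.9 and 4.2 mm and *Mmp13* at 828 CPM (722–945) between 4.8 and 5.1 mm. On the other side of the *Col2a1* peak, *Col10a1* formed a further band, at 734 CPM between 2.7 and 3.0 mm in section 1 and 237 CPM between 2.4 and 2.7 mm in section 2. *Mmp13* had no matching maximum in these bins, with 449 and 359 CPM. Further left *Col10a1* had a lower rise, at 510 CPM between 1.5 and 1.8 mm in section 1 and 154 CPM between 1.2 and 1.5 mm in section 2. *Mmp13* was at 410 and 483 CPM in these bins. Both genes were lower between 0.9 and 1.2 mm, *Col10a1* at 233 and 112 CPM and *Mmp13* at 168 and 382.5 CPM. Between the *Col10a1* bands on the 2 sides of the *Col2a1* peak, the *Col10a1* level dropped to 134 CPM in section 1 and 81.1 CPM in section 2. Both values were between 3.3 and 3.6 mm.

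**Figure D2:**
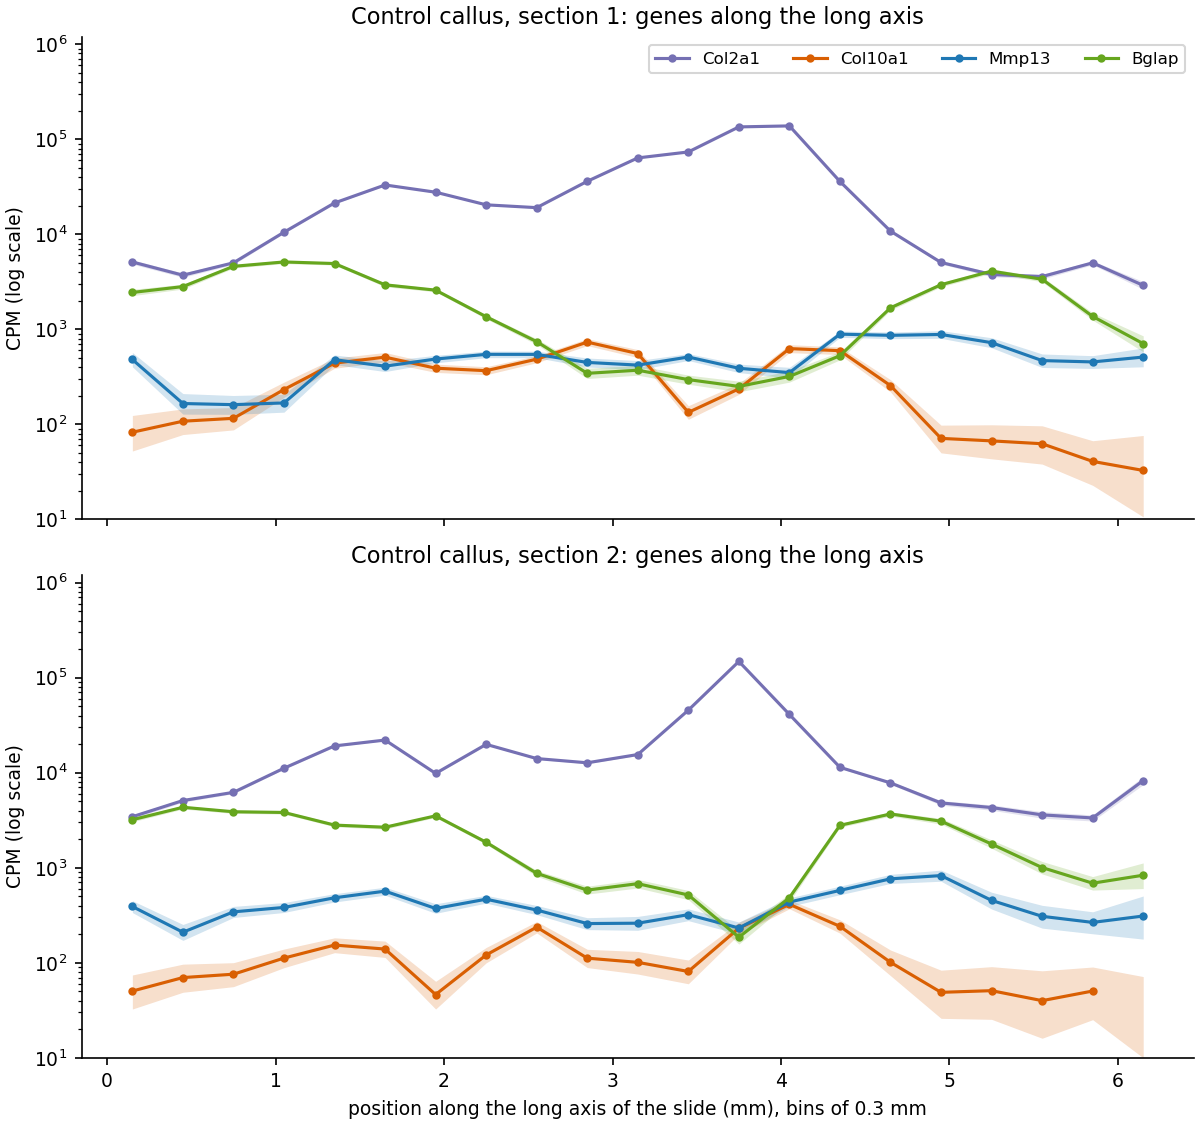
Levels of *Col10a1*, *Mmp13* and 2 reference genes, *Col2a1* for cartilage and *Bglap* (osteocalcin) for bone, in CPM along the control callus in bins of 0.3 mm, with bands for the 95% counting intervals. On the right side *Mmp13* was highest beyond the *Col2a1* peak in both sections, but beyond the *Col10a1* band only in section 2. *Col10a1* shared the bin of *Col2a1* in section 1 and was 1 bin further in section 2.

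By the authors' annotation of section 1 spots, used only to group spots, the genes had their highest levels in different regions but overlapped in them. *Col10a1* was at 1149 CPM (1097–1203) in the 273 Cartilage spots and at 469 CPM in the 466 Woven bone spots. *Mmp13* was at 460 CPM in Cartilage and 877 CPM (849–906) in Woven bone. Woven bone therefore held 53.2% of the *Mmp13* UMIs of the section 1 control callus, and Cartilage 10.6%. For *Col10a1* the shares were 41.8% and 38.8%, so Woven bone held the largest share of both genes. Both genes were positive in 163 of the 466 Woven bone spots and 79 of the 273 Cartilage spots. Ossifying perichondrium, with 409 spots, was at 122 CPM of *Col10a1* and 341 CPM of *Mmp13*, and Progenitor, with 146 spots, at 102 and 300.2 CPM.

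SpatialTime is the authors' measure of a spot's distance from the fracture plane. *Col10a1* was highest at SpatialTime 5 to 9, with 747 CPM (715–780), against 204 CPM at 0 to 4 and 488 CPM at 10 to 14. *Mmp13* was highest at 10 to 14, with 858 CPM (822–896), against 595 CPM at 5 to 9 and 561 CPM at 15 to 19. At 20 to 25, the levels were 98.7 CPM for *Col10a1* and 348 CPM for *Mmp13*. The authors' pseudotime classes divide woven bone spots only, with 63 low and 312 high spots. Between them, the log2 ratio of low over high pseudotime was -0.02 (-0.19 to 0.16) for *Mmp13* and -0.88 (-1.31 to -0.47) for *Col10a1*. The paper also reports higher *Col10a1* in its pseudotime-high spots.

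In both sections, control spots positive for 1 gene were more often positive for the other than control spots in general. The part of depth in this was not tested. Both genes were positive in 388 control spots. These were 57.1% (53.2–60.8) of the *Col10a1* spots and 28.1% (25.7–30.6) of the *Mmp13* spots. Of all control spots, 39.7% were positive for *Mmp13* and 19.6% for *Col10a1*. The share of *Col10a1* spots is the larger because fewer spots were positive for *Col10a1*. By section, the shares of *Col10a1* spots were 60.8% and 47.0%, and the shares of *Mmp13* spots 38.0% and 14.7%. The pooled share of *Col10a1* spots was 42.1% when 5 UMIs were asked of each gene, where 23.15% of all control spots were positive for *Mmp13*. After thinning to 1000 UMIs, a spot counted as positive from 1 UMI. The share was then 39.4%, against 31.9% of all thinned control spots with *Mmp13*. In the other direction, 21.7% of *Mmp13* spots had *Col10a1*, against 17.6% of all thinned control spots. A spot can hold several cells, so a shared spot does not show that a single cell made both transcripts.

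Spots positive for one gene and with 0 UMIs of the other were used to describe where the genes part. In the control, 95 spots were *Col10a1*-only (60 and 35 by section) and 553 were *Mmp13*-only (228 and 325). Median depths were 4492 UMIs in *Col10a1*-only, 8417 in shared and 7891 in *Mmp13*-only spots, so 0 UMIs of *Mmp13* were easier to obtain in *Col10a1*-only spots, and the part of depth in this class was not tested. *Col10a1*-only spots lay inside and at the edges of the *Col10a1* bands, and *Mmp13*-only spots filled the areas beyond them.

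**Figure D3:**
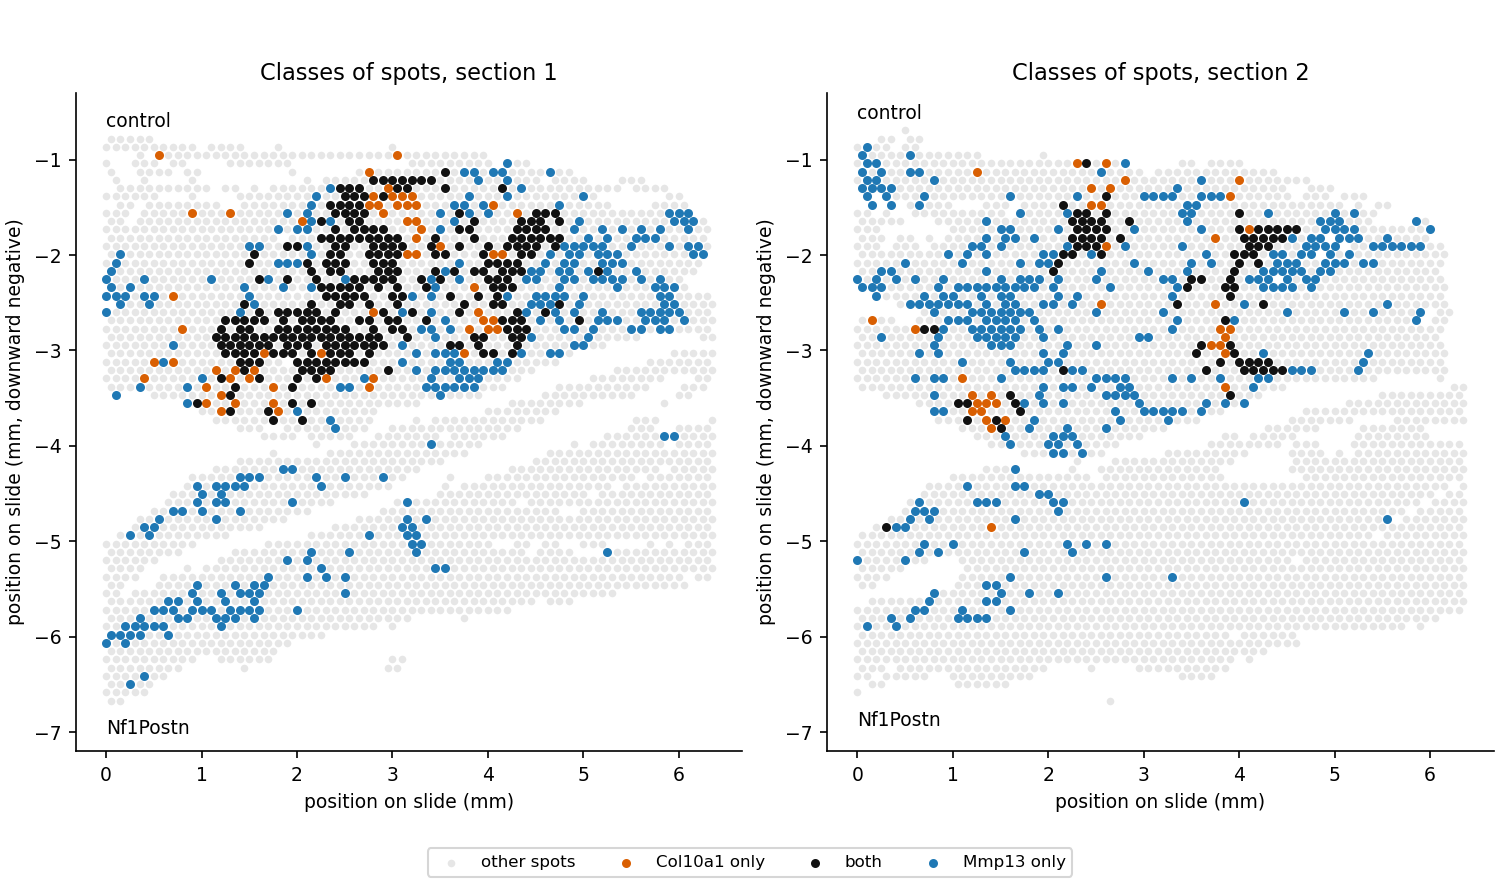
Control and Nf1Postn spots by position on the slide in mm, colored as *Col10a1*-only, *Mmp13*-only, both (from 3 UMIs each) or other. Shared spots form bands in the control callus, and the Nf1Postn callus holds 162 *Mmp13*-only spots and 1 spot of each class with *Col10a1*.

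Most of the richest spots of the genes were different spots. Among control spots with at least 1000 UMIs, the 5% with the highest CPM of each gene shared 10 of 83 spots in section 1 and 11 of 85 in section 2. Sets of this size drawn at random from these spots would share 5% of their spots on average, and both overlaps were above that share. Top spots were picked on CPM, so shallow spots can enter both sets, and the part of this in the overlaps was not tested. The median distance from a top *Mmp13* spot to the nearest top *Col10a1* spot was 200 μm in section 1 and 346 μm in section 2. Some top spots of shallow depth rested on as few as 1 *Col10a1* or 2 *Mmp13* UMIs.

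The level of each gene declined with distance from the top spots of the other. Around top *Mmp13* spots, *Col10a1* went from 607 CPM (562–655) in these spots to 304 CPM at 3 spot spacings and 64.2 CPM at 8 or more, although in section 2 it was 342 CPM at 1 spacing against 299.8 CPM (255–350) in the top spots. Around top *Col10a1* spots, *Mmp13* went from 859 CPM (794–927) to 517 CPM at 3 spacings and 256 CPM (242–269) at 8 or more. In the Nf1Postn callus, *Col10a1* stayed between 26.7 and 51.1 CPM at all distances from top *Mmp13* spots.

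Spots rich in marker genes of a tissue differed in the genes. A spot of at least 1000 UMIs was called rich where a marker list took at least the share of its UMIs found at the 90th percentile of control spots, which gave 335 control spots per list. Neither gene was in these lists. In cartilage-rich spots, *Col10a1* was at 739 and 617 CPM in sections 1 and 2, against 279 and 111 CPM in other spots. *Mmp13* went the other way, with 329 and 249 CPM in cartilage-rich spots against 535 and 416 CPM in others. The log2 ratios, pooled over sections, were 1.84 (1.77 to 1.92) for *Col10a1* and -0.64 (-0.74 to -0.54) for *Mmp13*, but the latter was 0.28 as a mean of log2(CPM + 1) over spots.

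Osteoclast-rich spots, marked by genes of bone resorption such as *Ctsk* and *Acp5*, had the highest *Mmp13* of the lists that describe the tissues of the callus. *Mmp13* was at 1051 and 1039 CPM there, against 424 and 341 CPM in other spots, a log2 ratio of 1.45 (1.39 to 1.51). *Col10a1* was at 210 and 148 CPM, against 364 and 143 CPM. The osteoblast list was mostly type I collagen. It summed to 115095 CPM in *Mmp13*-only control spots, with *Col1a1* at 41850 and *Col1a2* at 69026 CPM. Osteoblast-rich spots are therefore spots rich in type I collagen transcripts, whichever cells made them. In these spots *Col10a1* was at 148 and 71.5 CPM, a log2 ratio of -1.32 (-1.48 to -1.16). *Mmp13* was at 393 and 440 CPM there, below other spots in section 1 and above them in section 2. The osteoblast-rich and osteoclast-rich sets overlapped in 64 control spots.

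**Figure D4:**
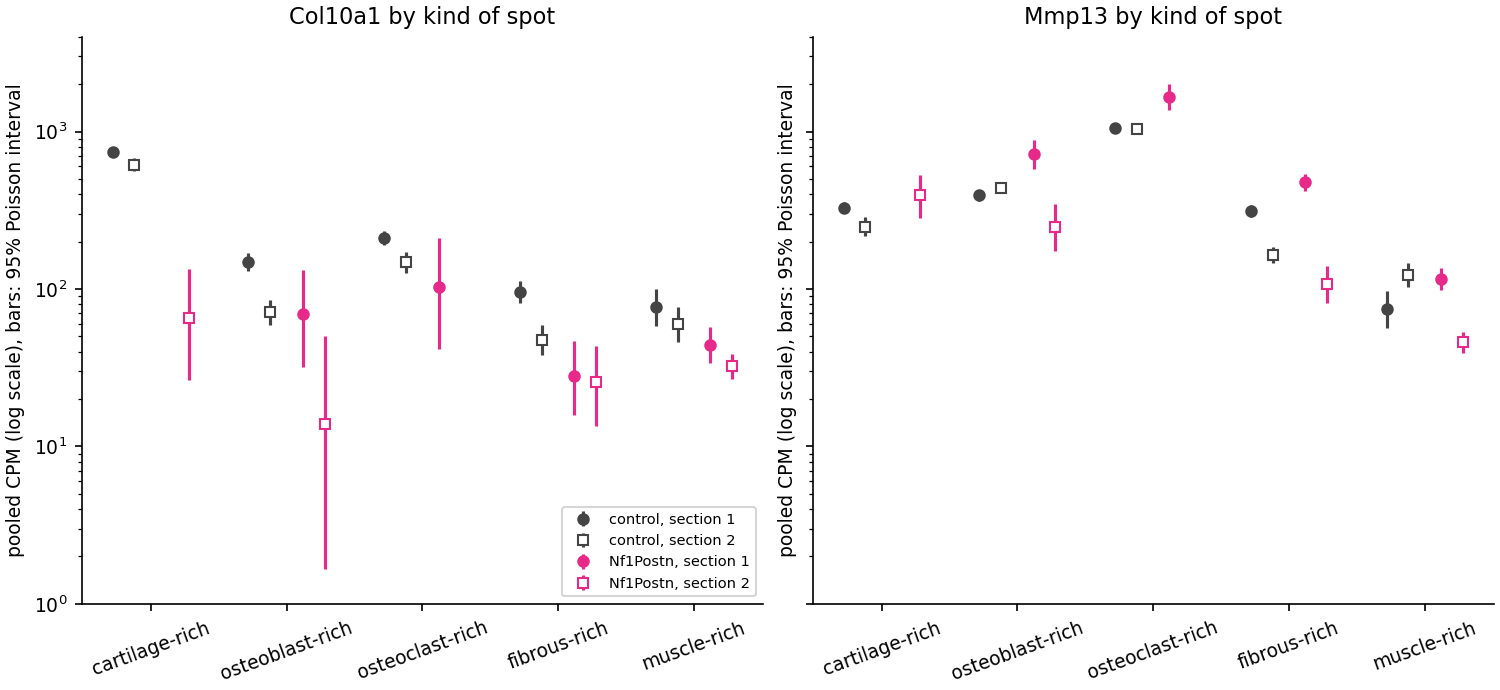
Levels in CPM of *Col10a1* and *Mmp13* in spots rich in the cartilage, osteoblast, osteoclast, fibrous or muscle list, by genotype and section, for sets of at least 5 spots, with 95% counting intervals. Of the 5 lists plotted, *Col10a1* was highest in cartilage-rich and *Mmp13* in osteoclast-rich spots of the control callus. In Nf1Postn section 2 the 3 osteoclast-rich spots are not plotted, and *Mmp13* was highest in cartilage-rich spots.

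Ordering all control spots by their share of cartilage transcripts placed the highest *Mmp13* before the highest *Col10a1* in both sections. The spots were cut into 10 groups of 335 over both sections. *Col10a1* went from 45.5 CPM in the lowest group to 1019 CPM (969–1070) in the ninth and 739 CPM in the tenth in section 1, and from 17.1 CPM to 397 CPM in the ninth and 617 CPM (564–675) in the tenth in section 2. *Mmp13* went from 186 CPM to 747 CPM (703–794) in the eighth and 329 CPM in the tenth in section 1, and from 273 CPM to 554 CPM (510–602) in the seventh and 249 CPM in the tenth in section 2. Ordered by osteoblast transcripts, the sections differed more. *Col10a1* was highest in the fifth group of section 1, at 579 CPM, and in the seventh of section 2, at 220 CPM (194–249). *Mmp13* was highest in the seventh group of section 1, at 819 CPM (771–869), and in the ninth of section 2, at 730 CPM (683–780).

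The make-up of the classes followed these levels. Cartilage-rich spots were 43.2% of *Col10a1*-only, 17.3% of shared and 3.98% of *Mmp13*-only control spots. Osteoclast-rich spots were 0% of the 95 *Col10a1*-only spots, 18.8% of shared and 16.3% of *Mmp13*-only spots. Osteoblast-rich spots were 3.16%, 6.96% and 15.2% of these classes.

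Few other genes parted with them at a 2-fold difference in both sections. Of 7285 genes with enough UMIs, 27 (0.371%) were higher in *Col10a1*-only and 66 (0.906%) were higher in *Mmp13*-only control spots. These 93 genes depend on the thresholds. With positive spots from 5 UMIs, 121 genes passed, of which 26 were among the 93, and without a minimum of UMIs per gene 1870 passed. The genes with the largest ratios towards *Col10a1*-only spots were *Snorc*, a small chondrocyte membrane proteoglycan (log2 2.58, 2.37 to 2.78), *Col2a1* (2.34), the link protein gene *Hapln1* (2.29), *Aldh1a3*, a retinoic acid synthesis enzyme (2.15), and *Clec3a*, a cartilage lectin (2.08). Of 11 tested cartilage genes, 6 were higher in *Col10a1*-only spots, among them *Col9a1* at 6029 against 1427 CPM, and the median of the list was 1.67 against -0.17 over all genes.

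Towards *Mmp13*-only spots, several of the largest ratios rested on few UMIs in the 95 *Col10a1*-only spots, so their rank is not read. *Atg3*, an autophagy enzyme, *Gpr137b*, a lysosomal membrane protein, and *Hapln4*, a link protein, each had 3 UMIs there, with log2 ratios of -2.76 (-5.05 to -1.19), -2.75 (-5.04 to -1.18) and -2.73 (-5.02 to -1.16). *Cyfip2*, an actin regulator, had 7 UMIs there and a ratio of -2.05 (-3.38 to -0.98), and the creatine kinase *Ckb* had 39 and a ratio of -1.98 (-2.48 to -1.52). Of 8 tested osteoclast genes, 5 were higher in *Mmp13*-only spots, with a list median of -1.29. Of 4 tested neutrophil genes, 2 were, *S100a8* (-1.52, from 10 UMIs in *Col10a1*-only spots) and *Ltf* (-1.53, from 6), named after their values were seen, and the median of that list was -1.53. The part of neutrophils in this class was not tested. The acid phosphatase *Acp5* was at 3009 against 828 CPM and the protease *Ctsk* at 3846 against 1478 CPM. None of 9 osteoblast genes passed, with *Col1a1* at 41850 against 28538 CPM and *Col1a2* at 69026 against 47356 CPM.

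The 12 genes called regulators of hypertrophy here include some, such as *Spp1* and *Alpl*, that are not regulators in a strict sense. Of the 12, 9 had enough UMIs to be tested. Of these 9, 8 had their highest level in shared spots and 1, *Mef2c*, in *Col10a1*-only spots by a small margin. Of the 7285 genes, 25.6% were highest in shared and 15.7% in *Col10a1*-only spots, among these classes and the spots with neither gene. *Ihh*, *Foxa2* and *Foxa3*, too low to be tested, were highest in *Col10a1*-only spots, from 42, 6 and 11 UMIs there. Of the regulators, none of the 9 tested passed the 2-fold difference between *Col10a1*-only and *Mmp13*-only spots. *Ihh*, the hedgehog ligand of prehypertrophic chondrocytes, was at 73.4 CPM in *Col10a1*-only, 44.8 in shared and 7.57 in *Mmp13*-only spots. The forkhead factor *Foxa3* followed the same order, with 19.2, 9.58 and 2.25 CPM, and *Foxa2* was at 10.5, 10.4 and 1.84 CPM.

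*Pth1r*, the receptor for parathyroid hormone-related protein, was at 503 CPM in *Col10a1*-only, 597 in shared and 343 in *Mmp13*-only spots. The channel gene *Panx3* was at 110, 148 and 62.8 CPM, and the phosphatase *Alpl* at 947, 1248 and 779 CPM. *Mef2c* differed little, with 121, 120 and 90.2 CPM. These genes were lowest in *Mmp13*-only spots of the 3 classes.

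Other regulators were lowest in *Col10a1*-only spots. The phosphoprotein *Spp1* was at 1285 CPM there, 3189 in shared and 2213 in *Mmp13*-only spots, and the osteogenic factor *Sp7* at 101, 196 and 155 CPM. *Runx2* was at 252, 354 and 291 CPM. *Runx3*, at 169, 195 and 159 CPM, and the angiogenic factor *Vegfa*, at 133, 162 and 115 CPM, were also highest in shared spots.

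Of the genes that act beside MMP13 on matrix, only *Mmp9* parted with it, 1 of 8 tested. *Mmp9*, the gelatinase of osteoclasts, was at 657 CPM in *Col10a1*-only, 3036 in shared and 1729 in *Mmp13*-only spots. The stromelysin *Mmp3*, too low to be tested, was at 12.2, 13.3 and 95.6 CPM. The collagenase activators *Mmp2* and *Mmp14* had log2 ratios of -0.36 and -0.27, and the inhibitors *Timp1*, *Timp2* and *Timp3* -0.49, -0.15 and 0.09. The urokinase gene *Plau* was at 0.14 and the aggrecanase *Adamts4* at -0.48. *Adamts5*, with 26.2 and 19.9 CPM in the classes of a single gene, and *Mmp10*, with 0 and 1.02 CPM, were too low.

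Likeness over the tissue gave different neighbors for the genes. Each control spot was summed with its adjacent spots, and log2(CPM + 1) was correlated over 1700 and 1778 such neighborhoods, which overlap and share depth, so these values are descriptions. The genes most like *Col10a1* were *Col2a1* (mean Pearson r over sections 0.59), *Col9a1* (0.54), *Col9a3* (0.50), *Col9a2* (0.50) and *Snorc* (0.49). The genes most like *Mmp13* were *Spp1* (0.56), the protease inhibitor *Serpine2* (0.49), *Ctsk* (0.48), *Mmp9* (0.47) and *Acp5* (0.47). The osteoclast genes among these depended on the summing of adjacent spots. In single spots the genes most like *Mmp13* were *Alpl* (0.34), *Spp1* (0.31), *Jdp2* (0.31), *Pth1r* (0.31) and *Serpine2* (0.31). There *Ctsk* had rank 6, and *Mmp9* and *Acp5* were not among the first 10. The r between *Col10a1* and *Mmp13* was 0.29 in section 1 and 0.20 in section 2. Among 8036 genes, *Mmp13* ranked 132 in likeness to *Col10a1*, and *Col10a1* ranked 390 in likeness to *Mmp13*.

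In the Nf1Postn callus *Col10a1* was low in both sections, whereas *Mmp13* kept local areas of high level. *Col10a1* was at 45.6 CPM (38.8–53.3) in section 1 and 32.9 CPM (28.5–37.9) in section 2. *Mmp13* was at 326 CPM (307–345) in section 1 and 117 CPM (109–126) in section 2. No spot of section 1 was positive for *Col10a1*, 0 of 1341, which allows a share of up to 0.275%, and 3 of 1556 were in section 2, with at most 3 UMIs. *Mmp13* was positive in 120 spots (8.95%) and 71 spots (4.56%), and its richest Nf1Postn spot held 44 UMIs, the same as the richest control spot.

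The log2 ratio of Nf1Postn over control was -2.91 in section 1 and -2.13 in section 2 for *Col10a1*, and -2.73 (-2.89 to -2.58) when pooled. For *Mmp13* it was -0.63 and -1.79, and -1.24 (-1.31 to -1.17) when pooled. The *Col10a1* ratio was taken on counts as measured, of which a part in the Nf1Postn callus may be background, since *Col10a1* was at 35.5 CPM (30.5–41.0) in its muscle-rich spots. *Col10a1* was at least 2-fold lower in both sections, as were 1.58% of 11848 genes, and *Mmp13* was not. Fewer cells of a type and less RNA per cell cannot be told apart in these spots. Muscle genes were higher in the Nf1Postn callus for 10 of 10 genes (median log2 ratio 2.32) and erythroid genes for 4 of 4 (median 3.02), at least 2-fold in both sections as for 4.21% of all genes. Their part in the ratios was not tested. In spots of at least 1000 UMIs that were not muscle-rich, *Mmp13* was at 358 CPM (340–377) in Nf1Postn against 485 CPM (477–494) in control. By section these values were 472.5 against 531 CPM and 248 against 432 CPM. *Col10a1* was at 38.1 CPM (32.3–44.6) against 264 CPM (257–270) in these spots of both sections.

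At equal depth, *Col10a1* over the whole Nf1Postn callus was close to its level in muscle-rich spots. Spots were thinned to 1000 UMIs, which left out 128 control and 328 Nf1Postn spots. *Col10a1* then had a UMI in 17.6% (16.3–18.9) of control spots and 4.91% (4.10–5.81) of Nf1Postn spots, against 50.2% and 11.5% before thinning. Muscle-rich spots, which should lack the gene, gave 7.16% (4.64–10.5) in control and 4.76% (3.74–5.96) in Nf1Postn, where they made up 1512 of the 2569 spots. The other 1057 Nf1Postn spots gave 5.11% (3.86–6.61), so a *Col10a1* level above background was not detectable in them as a group at this depth. *Mmp13* had a UMI in 31.9% of control and 14.6% (13.2–16.0) of Nf1Postn spots after thinning, against 10.4% and 7.67% in muscle-rich spots. Outside muscle-rich spots it had a UMI in 34.3% (32.6–36.0) of control and 24.4% (21.8–27.1) of Nf1Postn spots. Median depths before thinning were 6614.5 and 2887 UMIs in all control and Nf1Postn spots kept and 4499 and 2787 in the muscle-rich ones.

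*Mmp13* in the Nf1Postn callus lay mostly at the left end of the slide, a division made after the map was seen. Up to 3 mm from the left edge it was at 434 CPM (407–463) in section 1 and 181 CPM (167–197) in section 2, and beyond at 144 and 44.5 CPM. The left side held 83.4% and 82.1% of its UMIs. Muscle-rich spots were 18.6% and 33.5% of the left side and 78.2% and 96.5% of the rest. The calluses lay in the block with different geometry, so the same distance from the left edge need not be the same tissue. Levels over this distance are given without reading them as a comparison of like tissue. In section 1 *Mmp13* was at 429 CPM (414–445) in the control callus there, and *Col10a1* was at 40.6 CPM in Nf1Postn against 395 CPM in control. In section 2 the left-side level of *Mmp13* was below the 392 CPM (378–407) of the control callus, and *Col10a1* was at 29.0 CPM against 118 CPM.

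The *Mmp13*-only class had 162 Nf1Postn spots, 104 in section 1 and 58 in section 2. Of these, 17.3% were fibrous-rich, 9.88% macrophage-rich, 9.26% muscle-rich, 8.64% osteoblast-rich, 4.32% osteoclast-rich and 2.47% cartilage-rich. Of all 2569 Nf1Postn spots with at least 1000 UMIs, 197 were fibrous-rich, 170 macrophage-rich and 1512 muscle-rich. In the same spots 66 were osteoblast-rich, 31 osteoclast-rich and 19 cartilage-rich. The fibrous-rich share of the class was 24.0% in section 1 but 5.17% in section 2, where 72 of all 1443 such spots were fibrous-rich. In the 28 osteoclast-rich Nf1Postn spots of section 1, *Mmp13* was at 1660 CPM (1368–1996), above the 1051 CPM of the control set, at a log2 ratio of 0.66 (0.37 to 0.93). The richest of these spots held 35 of 113 UMIs, and without it the ratio was 0.25 (-0.10 to 0.58). The 3 osteoclast-rich spots of section 2 held 6 UMIs of *Mmp13*, at 288 CPM (106–628) against 1039 CPM in control, the other direction. In the 37 osteoblast-rich spots of section 1 it was at 719 CPM (580–880) against 393 CPM in control, and in the 29 of section 2 at 249 CPM (174–344) against 440 CPM. The direction thus differed between the sections. *Col10a1* held 9 and 2 UMIs in these osteoblast-rich spots.

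Spots rich in hypertrophy regulators differed in the genes as well. *Spp1* (1805 CPM in the control callus) and *Alpl* (765 CPM) are the most abundant genes of this list, which holds neither member. They therefore weigh most in the choice of these spots. In control, *Col10a1* was at 949.5 and 429 CPM and *Mmp13* at 1290.5 and 1264 CPM in the 183 and 152 such spots of sections 1 and 2. The Nf1Postn callus had 29 and 16 such spots, with *Col10a1* at 100.4 CPM (43.4–198) and 57.6 CPM (18.7–135). *Mmp13* was at 2109 CPM (1802–2453) and 703 CPM (538–903) there. *Mmp13* was thus above the control set in section 1 and below it in section 2, and *Col10a1* was below it in both. Pooled over sections, *Col10a1* was at 78.1 CPM (41.6–134) in these Nf1Postn spots, from 13 UMIs, against 35.9 CPM (32.1–40.0) in the others.

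Of 11 tested hypertrophy regulators, 6 were at least 2-fold lower in the Nf1Postn callus in both sections, against 1.58% of all 11848 genes tested. Among the 6 were *Ihh* at 3.81 against 18.3 CPM, *Pth1r* at 150 against 373 CPM and *Alpl* at 258 against 765 CPM. *Mef2c* was at 122 against 98.9 CPM and *Vegfa* at 111 against 118 CPM. Of 10 genes that act beside MMP13, only *Mmp9* was lower in this way, at 463 against 1496 CPM. The median log2 ratio was -1.32 for the regulators and -0.53 for the MMP13 partners, against -0.09 over all genes. Of the cartilage genes 11 of 12, of the osteoblast genes 5 of 9 and of the osteoclast genes 4 of 10 were lower in this way, against the same 1.58% of all genes.

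Cartilage-rich spots allowed a comparison at a like share of cartilage transcripts, and the genes parted there. Only 19 Nf1Postn spots were cartilage-rich, all in section 2, in 3 adjacent rows of the grid over 0.85 mm. They held a median of 5602 UMIs, close to the 5683 of the 109 control cartilage-rich spots of section 2. *Col10a1* had 7 UMIs in 5 of the 19 spots, with at most 2 in a spot. *Mmp13* had 42 UMIs in 9 of them, of which 17 came from 1 spot and 8 from the next. Both genes were seen in 3 spots and neither in 8.

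*Col10a1* was at 65.4 CPM (26.3–135) in these spots against 617 CPM (564–675) in the control set of section 2, a log2 ratio of -3.24 (-4.56 to -2.19). *Mmp13* was at 392 CPM (283–530) against 249 CPM (216–287), a log2 ratio of 0.66 (0.14 to 1.14). Without its richest spot, left out after the values were seen, *Mmp13* was at 256 CPM (166–378) and the ratio at 0.04 (-0.62 to 0.64), so a higher *Mmp13* rests on that spot. In this set 1.03% of 2609 genes were at least 4-fold lower, *Col10a1* among them, and only 1 other gene had a ratio as low. A gene without a UMI in the Nf1Postn spots was set at a floor of 3 counts. Genes low in control could thus lack any UMI there and still not count as 4-fold lower. The share of genes and the rank of *Col10a1* therefore depend in part on this floor, and its effect on them was not tested. The median over all genes was -0.03. These spots come from 1 patch of 1 callus.

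The regulators of hypertrophy were not low as a group in this patch. Of 12, 5 had an interval above 0, 2 below and 5 neither, against 7.78% above and 9.16% below of the 2609 genes. *Panx3* was at 430 against 243 CPM (log2 0.82, 0.33 to 1.29), *Pth1r* at 0.64 (0.34 to 0.92), *Alpl* at 0.57 (0.31 to 0.82), *Runx3* at 0.75 and *Runx2* at 0.66 (0.05 to 1.23). *Ihh* had 7 UMIs, at 65.4 against 55.7 CPM (0.23, -1.16 to 1.40). *Mef2c* (0.86, -0.10 to 1.72), *Sp7* (0.69, -0.06 to 1.39) and *Foxa2*, with 1 UMI, had intervals that include 0.

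*Vegfa* was lower, at 37.4 against 164 CPM (-2.14, -4.04 to -0.75), from 4 UMIs, and *Spp1* slightly so (-0.43, -0.71 to -0.15). *Foxa3* had 0 UMIs, which with 3 counts as the floor over the set puts it at or below -0.48. Among cartilage genes, *Col2a1* was at 201394 against 204543 CPM (-0.02) and *Col9a1* at 0.36 (0.28 to 0.45), while the chondrocyte factor *Sox9* was at -1.57 (-1.95 to -1.21) and the aggrecan gene *Acan* at -1.57 (-1.79 to -1.37). Of 12 cartilage genes, 2 had an interval above 0, 8 below and 2 neither.

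**Figure D5:**
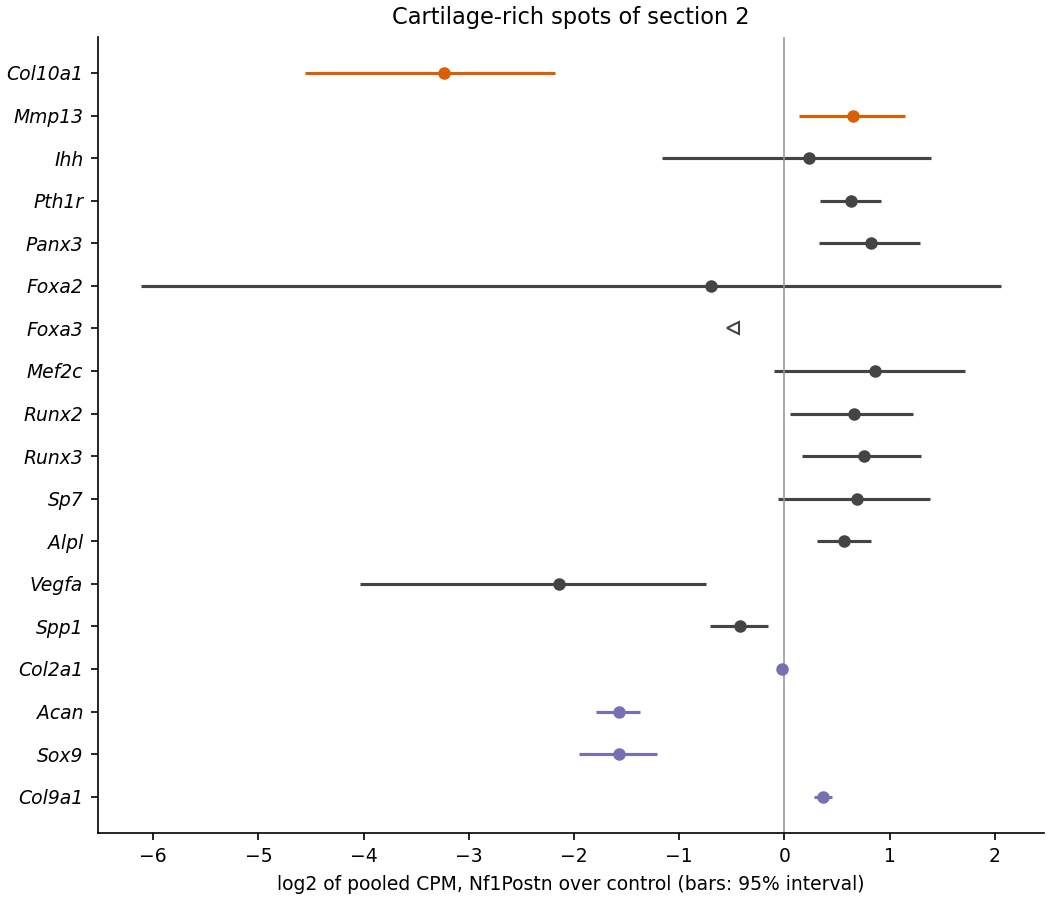
Log2 ratio of Nf1Postn over control in the cartilage-rich spots of section 2, for *Col10a1*, *Mmp13*, the hypertrophy regulators and cartilage genes, with 95% counting intervals; an open triangle marks an upper bound. *Col10a1* lies at -3.24, below the other values shown, and *Mmp13* at 0.66.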

How the data were processed

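For each of 2 sections the authors deposited UMI numbers per gene and spot, which they made with Space Ranger 1.3.0 on mm39 (per the submitters' processing notes) and exported from Partek Flow without normalization. The values deposited by the authors were handled like expected counts, since 10 entries are not whole, and these were rounded where counts were drawn. An entry without a gene (6.813e-05% and 3.755e-05% of UMIs) was left out. The authors' genotype of each spot, spot positions, and the cluster, SpatialTime and pseudotime class of section 1 control spots were used as annotation. The paper states that the calluses were placed in the block with different geometry, so that control and mutant could be told apart. How single spots were then assigned at the border is not given in the sources used here.

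UMIs were pooled over spots and divided by all UMIs of these spots. Ratios have conditional exact 95% intervals. No test was run. Gene lists were written by hand, and the members and lists were chosen with earlier results of these data known. Genes were named if they were members, hypertrophy regulators or MMP13 partners, among the 5 largest ratios each way between spot classes, among the 5 most like each member, or among the 2 most abundant of another list, of which not all are given. Genes compared between classes had at least 50 UMIs, and those ranked by likeness at least 200 UMIs, in each section. Alternatives were a section left out, other thresholds, thinning, means of log2(CPM + 1) and factors from the trimmed mean of M values (edgeR 4.0.16, R 4.3.3). Scripts ran in Python 3.11.15 with numpy 2.4.6 and scipy 1.17.1 and were tested on simulated data.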

Additional observations from a re-analysis of the deposited data

Results flagged for a closer look

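By pooled CPM, *Mmp13* in cartilage-rich over other spots ran in opposite directions in the genotypes. As a mean of log2(CPM + 1) over spots, the control ratio was 0.28, in the direction of Nf1Postn. The log2 ratio was 1.04 in the pooled Nf1Postn spots and 1.81 (1.33 to 2.26) in section 2, which held all 19 of these spots, against -0.70 and -0.74 in the control sections. Without the spot that held 17 of the 42 UMIs, the section 2 ratio was 1.20 (0.56 to 1.77). The difference was not tested, and the other Nf1Postn spots were largely muscle-rich. In the Nf1Postn spots of section 2 that were not muscle-rich, *Mmp13* was at 248 CPM (227–270). The cartilage-rich spots were at 392 CPM, or 256 CPM without the richest spot.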

How the results depend on the processing

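Of 82 recomputed values, 42 stayed within a limit, 36 moved by more and 4 reversed. The limit was the spread between sections, the counting interval or, for counts of genes, a set fold. Values with 1 section left out are those of the other section, from which the spread was taken, so they are no independent check. A count of genes can also stay within its limit while the genes change, as from 5 UMIs, where 26 of the 93 were shared. No paired analysis was possible because no test was run with 1 mouse per genotype; ratios within each section are given in its place. The reversals all concerned *Mmp13*: in cartilage-rich spots 0.28 as a mean of log2(CPM + 1), and in osteoblast-rich spots 0.14 in section 2 alone, 0.34 with the 80th percentile and 0.30 as a mean of log2(CPM + 1). Their cause was not tested.

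With 1 section left out, the genotype log2 ratios ranged from -2.91 to -2.13 for *Col10a1* and from -1.79 to -0.63 for *Mmp13*, shared spots from 47.0% to 60.8% of *Col10a1* spots and from 14.7% to 38.0% of *Mmp13* spots in control, and from 0% to 1.41% of *Mmp13* spots in Nf1Postn. In cartilage-rich spots the ratio ranged from 1.41 to 2.48 for *Col10a1* and from -0.74 to -0.70 for *Mmp13*, in osteoblast-rich spots from -1.32 to -1.12 and from -0.41 to 0.14. The log2 ratio of *Col10a1* to *Mmp13* UMIs, whose size depends on the probes and which serves only to compare groups of spots, ranged from 1.17 to 1.31 in cartilage-rich and from -2.62 to -1.41 in osteoblast-rich spots. *Col10a1* in top *Mmp13* spots over spots 3 spacings away ranged from 0.95 to 1.18 and *Mmp13* in top *Col10a1* spots likewise from 0.67 to 0.82. The 93 genes that part became 559 to 773, since a single section then had to pass. Without a minimum of UMIs they were 1870, and at 3-fold 10. From 5 UMIs they were 121, of which 26 were shared.

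Shared spots were 80.3% of *Col10a1* spots from 1 UMI, 42.1% from 5 UMIs and 39.4% after thinning, and 54.0% of *Mmp13* spots from 1 UMI. Thinned spots counted as positive from 1 UMI. In Nf1Postn they were 11.9% of *Mmp13* spots from 1 UMI, 6.95% after thinning and 2.73% at 500 CPM. As a mean of log2(CPM + 1), the genotype ratio of *Mmp13* was -3.81, *Col10a1* was 4.32 in cartilage-rich and -1.06 in osteoblast-rich spots, and *Col10a1* in top *Mmp13* spots over spots 3 spacings away 0.46. With the 80th percentile, *Mmp13* in cartilage-rich spots was -0.15, *Col10a1* in osteoblast-rich spots -1.12 and the UMI ratio in cartilage-rich spots 0.83. With the 95th percentile these were -0.98, -2.09 and 1.70, and *Mmp13* in osteoblast-rich spots was -0.66. Single spots kept 4 of the 10 most alike genes. Thinned to 2000 UMIs, *Col10a1* was seen in 27.5% of control and 7.13% of Nf1Postn spots and *Mmp13* in 47.5% and 22.9%. Shallow Nf1Postn spots limit what can be seen of either gene. Leaving out the richest Nf1Postn spot, chosen after seeing the data, moved *Mmp13* over control from 0.66 to 0.04 in cartilage-rich and from 0.66 to 0.25 in osteoclast-rich spots, but in osteoblast-rich spots of section 1 only from 0.87 to 0.85 and in regulator-rich spots from 0.71 to 0.53.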
